A study of Mus musculus with 24 samples.

Results

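CC chemokines are small secreted proteins, named for a pair of adjacent cysteines, that draw leukocytes toward the cells releasing them. The 10 CC chemokine genes described here were Ccl2, Ccl7, Ccl8, Ccl12, Ccl11, Ccl3, Ccl4, Ccl5, Ccl9 and Ccl22, chosen by gene symbol from the 55291 gene names in the count tables. Each of the 10 was among the 16258 genes that passed the filter on low counts. Ccl22 did so only through the WT conditions with rmCIRP, where it was high, and it is therefore described by its values and left out of the counts that compare other conditions with those. The ligands act through G protein-coupled receptors on the surface of leukocytes and differ in the cells they attract. Ccl2, Ccl7 and Ccl12 are ligands of CCR2 and draw monocytes, Ccl11 (eotaxin) draws eosinophils through CCR3, and Ccl8 is a monocyte chemoattractant protein that in the mouse acts largely through CCR8. Ccl3, Ccl5 and Ccl9 bind CCR1, Ccl4 is a close relative of Ccl3, and Ccl22 draws CCR4-bearing T cells. In many cells, transcription of several of these genes rises when Toll-like receptors or cytokine receptors activate NF-kappaB, and the chemokines that lung fibroblasts release can bring leukocytes into injured lung.

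The cells were pulmonary fibroblasts of the C57BL/6 strain, isolated from lungs of 4- to 8-week-old wild-type (WT) and TLR4-/- mice as a pool of 3 to 4 lungs for each group and used at passages 3 to 6. After a night in reduced-serum medium, cells of each genotype were kept for 24 h with saline (PBS), with mouse CIRP made as a recombinant protein (rmCIRP, at 1 μg/ml), with recombinant TGF-β1 of the mouse (rmTGF-β1, at 2 ng/ml), or with rmCIRP and rmTGF-β1 together. CIRP, the cold-inducible RNA-binding protein, acts outside cells as a damage signal that binds TLR4, and TGF-β1 is the growth factor best known for turning fibroblasts into matrix-producing myofibroblasts. Sequencing of total RNA gave 24 libraries, 3 to a condition over 8 conditions, and the comparisons addressed whether each protein changed chemokine mRNA and whether the change differed between the genotypes. Nothing in the labels said whether the 3 libraries of a condition came from separate cultures, so the p-values measure the spread between these libraries, which may be technical, and the pool of cells and the genotype cannot be told apart.

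Each library held between 29853346 and 39664606 reads on genes. Levels are given as normalized counts, which are the counts divided by the size factor of the library, and ± is the SD over the 3 libraries of a condition. Replicates differed by more than counting error, with a chi-square per degree of freedom of 2.52 to 45.7 between pairs. Tlr4 mRNA was not lower under the TLR4-/- label. Condition means were 650.1 to 759 normalized counts in WT libraries and 759 to 903 in the others. It was called higher under the label with PBS (log2 fold change 0.25, edgeR adjusted p = 0.00123) and with rmCIRP (0.27, adjusted p = 0.000363). The exons behind these reads are not visible in a count per gene. The cells are therefore called labelled TLR4-/-. Summed over 8 fibroblast markers, libraries held 391672 to 567908 normalized counts. Over 13 macrophage markers they held 74842 to 99191 in WT and 335312 to 432994 in labelled TLR4-/- libraries, and all 13 were above 3 counts in every condition. The sum over 6 T and NK cell markers was at most 53.6, over 3 B cell markers at most 11.9, and over 4 epithelial markers at most 107.9. It was at most 829 over 3 endothelial markers, 933 over 4 dendritic cell markers and 390 over 4 neutrophil markers. Replicate 3 of the labelled TLR4-/- cells with both proteins stood apart the most, with a chi-square per degree of freedom of 45.7 and 31.3. It is given with and without where it matters. Replicate 3 of the labelled TLR4-/- cells with rmTGF-β1 alone also stood apart (11.9 and 15.6).

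**Figure D1:**
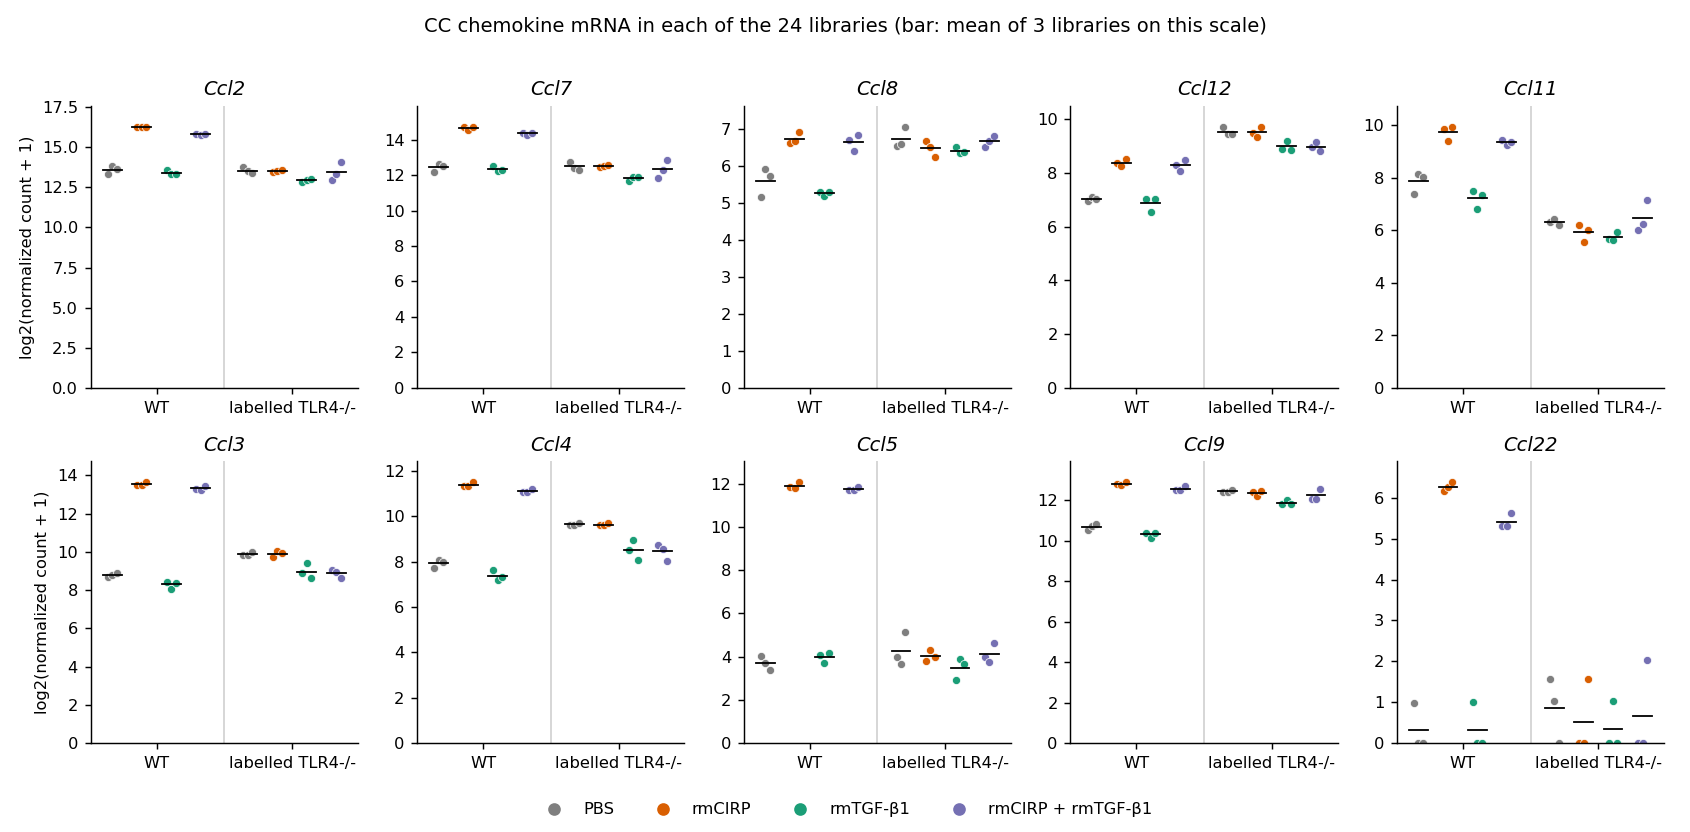
Levels of the 10 CC chemokine genes in each of the 24 libraries, as log2 of the normalized count plus 1 on the y axis, with WT libraries on the left and labelled TLR4-/- libraries on the right of each panel. Points are libraries colored by treatment, and bars are the mean of 3. In every panel, the WT libraries with rmCIRP sit above those with PBS, while the labelled TLR4-/- libraries with PBS and with rmCIRP sit near each other, with Ccl12 and Ccl9 already high.

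By the GENCODE M21 annotation, 9 of the 10 genes lie on mouse chromosome 11, in families of neighbors. Ccl2, Ccl7, Ccl11, Ccl12 and Ccl8 follow each other without another protein-coding gene between them, Ccl5 is next to Ccl9, and Ccl3 is next to Ccl4. Ccl22 lies on chromosome 8. No member shares exon bases with another gene, although Ccl2 overlaps Gm17268 on the opposite strand. Promoter sequences were at hand for 5 of the 10 genes, Ccl8, Ccl12, Ccl3, Ccl9 and Ccl22, as the 250 bases before the annotated start in RefSeq (build GRCm38.p6). They were searched on both strands for the TATA box (TATAAA), the AP-1 motif (TGANTCA), the NF-kappaB consensus, the interferon response element and the SMAD motif (GTCTAGAC). A match is a run of letters, not a site shown to be bound. Of 32841 promoters of the same length, 12.4% held a TATA box match, 6.75% an AP-1 match, 3.9% an NF-kappaB match, 2.98% an interferon response element match and 0.167% a SMAD match. Only the 3 promoters with a match are shown. Their genes rose with rmCIRP in WT cells and stood at different levels in the genotypes with PBS, but so did Ccl3, whose window held no match. The sequences are written 5′ to 3′ on the coding strand, with matches in capitals.
Ccl8: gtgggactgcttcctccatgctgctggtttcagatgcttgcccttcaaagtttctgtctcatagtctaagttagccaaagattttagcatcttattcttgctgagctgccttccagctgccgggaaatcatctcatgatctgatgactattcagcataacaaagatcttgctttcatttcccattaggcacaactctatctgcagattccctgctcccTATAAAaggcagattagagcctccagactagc
Ccl12: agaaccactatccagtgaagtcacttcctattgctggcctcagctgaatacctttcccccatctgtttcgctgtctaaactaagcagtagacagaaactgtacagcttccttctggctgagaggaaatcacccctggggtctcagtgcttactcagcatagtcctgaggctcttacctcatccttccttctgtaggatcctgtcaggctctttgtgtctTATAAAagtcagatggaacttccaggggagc
Ccl9: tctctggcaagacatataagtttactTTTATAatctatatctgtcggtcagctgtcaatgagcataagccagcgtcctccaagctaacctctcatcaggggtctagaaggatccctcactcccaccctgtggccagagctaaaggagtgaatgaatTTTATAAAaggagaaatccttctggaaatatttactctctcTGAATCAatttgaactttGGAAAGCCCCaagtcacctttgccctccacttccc
Ccl8 and Ccl12, 2 of the neighboring genes, each had a TATA box match at almost the same place, 32 to 27 bases before the start in Ccl8 and 31 to 26 bases before it in Ccl12. Ccl9 had the AP-1 match TGAATCA 53 to 47 bases before the start and the NF-kappaB match GGAAAGCCCC, read here from the opposite strand, 35 to 26 bases before it. Its TATA box letters lay farther out, at 224 to 219 bases and in an overlapping pair of matches at 94 to 87 bases before the start. In these windows of Ccl3 and Ccl22, none of the letters searched was found.

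In WT cells, rmCIRP raised chemokine mRNA. Each of the 9 members other than Ccl22 was called higher than with PBS at an adjusted p under 0.1, against 19.8% of all genes tested that were called higher and 43.9% called in either direction. For each of these 9, the lowest rmCIRP library was above the highest PBS library, and 50.8% of all genes had libraries without overlap. The median log2 fold change was 2.19 over the 9 members and -0.02 over all genes. Macrophage markers did not rise with them as a list, since 3 of 13 were higher and 10 lower with a median of -0.38, and their sum was 91041 to 99191 with PBS and 76342 to 81030 with rmCIRP. Of the fibroblast markers 2 of 8 were higher and 5 lower, with sums of 499896 to 541736 with PBS and 399219 to 438006 with rmCIRP. Some markers of other cells did move upward with the chemokines. Of 3 tested dendritic cell markers 2 were higher, Xcr1 (1.81) and Itgax (0.51), and Zbtb46 was not called. The sum of the list went from 398 to 421 up to 516 to 594. Flt3, the marker of this list that was not tested, had at most 3 counts in each library. With both proteins against rmTGF-β1, all 3 tested dendritic cell markers were higher (median 0.37, 20.5% of all genes). Of 4 neutrophil markers only S100a8 was tested and it was higher (1.04), the sum being 117 to 144 with PBS and 263 to 307 with rmCIRP. Of the 4 markers, 3 had at most 3 counts in every PBS library and 2, Ly6g and S100a9, in every rmCIRP library. Cxcr2 thus passed 3 counts with rmCIRP but not with PBS. The part of such cells in the chemokine levels was not tested. Less RNA per cell and fewer cells of a type cannot be told apart in these bulk libraries.

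Among the ligands of CCR2, Ccl2, the main monocyte attractant, was the most abundant per length. It had 10282, 14368 and 13052 normalized counts in the 3 WT libraries with PBS and 79081, 77002 and 78554 with rmCIRP. The rmCIRP libraries lay far above the highest PBS library and close to each other, and Ccl2 rose by 2.63 on the log2 scale (SE 0.18, adjusted p = 1.04e-10), or 6.20-fold. Ccl7, the next gene on the chromosome, had 4711, 6365 and 5925 normalized counts with PBS and 26985, 24322 and 26449 with rmCIRP, and rose by 2.19 (SE 0.17, adjusted p = 6.23e-10). Ccl12 started much lower and rose less, from 123, 136 and 130.1 to 329, 306 and 369 normalized counts. On the log2 scale its change was 1.36 (SE 0.15, adjusted p = 1.63e-07).

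The other members of that gene cluster had modest levels. Ccl8 had 34.6, 58.9 and 52.04 normalized counts with PBS and 96.6, 99.8 and 119 with rmCIRP, the smallest rise of the 9 at 1.11 (SE 0.18, adjusted p = 3.93e-05). Ccl11, the eosinophil attractant eotaxin, went from 167, 283 and 260.2 to 914, 680.1 and 977 normalized counts. Both genes varied between replicates of one condition more than Ccl9 did, yet their rmCIRP and PBS libraries stayed apart. Ccl11 rose by 1.85 on the log2 scale (SE 0.19, adjusted p = 7.41e-08).

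Ccl5, Ccl3 and Ccl4 had the widest changes among the members with a fold. Ccl5 (RANTES), which draws T cells and monocytes, was nearly silent with PBS, at 15.4, 11.98 and 9.37 normalized counts, and reached 3635, 3605 and 4275 with rmCIRP. This was a rise of 8.26 on the log2 scale (SE 0.16, adjusted p = 3.66e-20), or 307-fold. Ccl3 (MIP-1α) had 412, 447 and 469 normalized counts with PBS and 11379.7, 11728 and 12705 with rmCIRP, a rise of 4.75 (SE 0.14, adjusted p = 3.28e-17). Its neighbor Ccl4 (MIP-1β) had 207, 273 and 253 and 2602, 2547 and 2889, a rise of 3.45 (SE 0.15, adjusted p = 7.3e-14). Ccl3 and Ccl4 thus differed in the size of their rise although they sit side by side, and the 95% intervals of the log2 fold changes, 4.46 to 5.03 and 3.13 to 3.77, did not overlap.

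Ccl9 (MIP-1γ), a ligand of CCR1, was already well expressed with PBS, at 1484, 1678 and 1802 normalized counts, and had 7252, 7015 and 7612 with rmCIRP. It rose by 2.14 (SE 0.11, adjusted p = 1.02e-12). Ccl22, the macrophage-derived chemokine, had at most 1 count in each of the 3 WT libraries with PBS and 70.04, 76.1 and 81.99 normalized counts with rmCIRP. Because the PBS libraries held no more than 3 counts, which was taken as the floor in each library, Ccl22 was at least 25.3-fold higher with rmCIRP (4.66 on the log2 scale).

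The rise was present as well in WT cells that received rmTGF-β1. With both proteins against rmTGF-β1 alone, the 9 members other than Ccl22 were all called higher (20.5% of all genes were called higher and 42.2% in either direction). Ccl5 had 15.01 ± 2.64 normalized counts with rmTGF-β1 (n = 3), and its libraries had 3393, 3291 and 3706 with both, a change of 7.82 on the log2 scale (SE 0.16, adjusted p = 5.67e-20). Ccl2 went from 12109, 10176 and 10509 to 58698, 56221 and 58622, a change of 2.40 (SE 0.18, adjusted p = 4.93e-10). In Ccl3 the change was 5.02 (SE 0.14, adjusted p = 2.04e-17), and in Ccl4 it was 3.73 (SE 0.16, adjusted p = 4.33e-14). Ccl7, Ccl8, Ccl12, Ccl11 and Ccl9 rose by 1.42 to 2.26, the lowest in Ccl12 and the highest in Ccl9, and Ccl22 was at least 14.7-fold higher (3.88 on the log2 scale).

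Labelled TLR4-/- cells gave no call for any chemokine with rmCIRP. None of the 10 members was called, and none of all 16258 genes (0%), where edgeR's lowest adjusted p was 0.104. At an unadjusted p under 0.05 there were 1136 genes (6.99%) but no member, and DESeq2 called 33 genes and no member. Ccl2 had 14018, 11593 and 10629 normalized counts with PBS and 11231, 11598 and 12270.4 with rmCIRP, overlapping ranges with a log2 fold change of -0.04 and a 95% interval of -0.40 to 0.32. Ccl5 had 14.8, 11.7 and 33.8 with PBS and 12.8, 18.6 and 14.7 with rmCIRP, and 1 PBS library lay above the others (log2 fold change -0.38, interval -1.12 to 0.35). Ccl3 had 903, 928 and 1004 with PBS and 837, 1038 and 987 with rmCIRP (log2 fold change 0.02, interval -0.25 to 0.29). The libraries of both treatments were intermingled for these 3 genes.

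For Ccl7, Ccl12, Ccl4 and Ccl9 the fitted changes were no lower than -0.07, in Ccl9, and none was above 0, and the widest of their intervals was that of Ccl7, -0.34 to 0.34. Ccl8 changed by -0.26 in the fit (interval -0.59 to 0.08). Ccl11 was the 1 of 10 whose libraries did not overlap (13.7% of all genes), with 79.03, 84.8 and 72.7 normalized counts with PBS and 71.8, 45.5 and 63.9 with rmCIRP. Its log2 fold change of -0.38 had an interval of -1.01 to 0.25 and did not pass the test (adjusted p = 0.887). Ccl22 had at most 3 counts in every labelled TLR4-/- library, so no fold is given. Except for Ccl22, the upper bounds of all intervals were below the smallest WT rise, that of Ccl8.

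Whether the response to rmCIRP differed with genotype was a test of its own, on the log2 fold change in labelled TLR4-/- cells minus that in WT cells. The 9 members other than Ccl22 were all called lower, against 14.3% of all genes (31.4% in either direction). Ccl5 differed by -8.65 (SE 0.50, adjusted p = 2.9e-11), Ccl3 by -4.73 (SE 0.18, adjusted p = 3.28e-14) and Ccl4 by -3.46 (SE 0.21, adjusted p = 5.6e-11). The remaining members, Ccl2, Ccl7, Ccl8, Ccl12, Ccl11 and Ccl9, differed by -2.67 (Ccl2) to -1.37 (Ccl8). Ccl22 is given no fold here because its labelled TLR4-/- libraries were at the floor. This comparison uses the same PBS and rmCIRP libraries as the comparisons within each genotype.

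**Figure D2:**
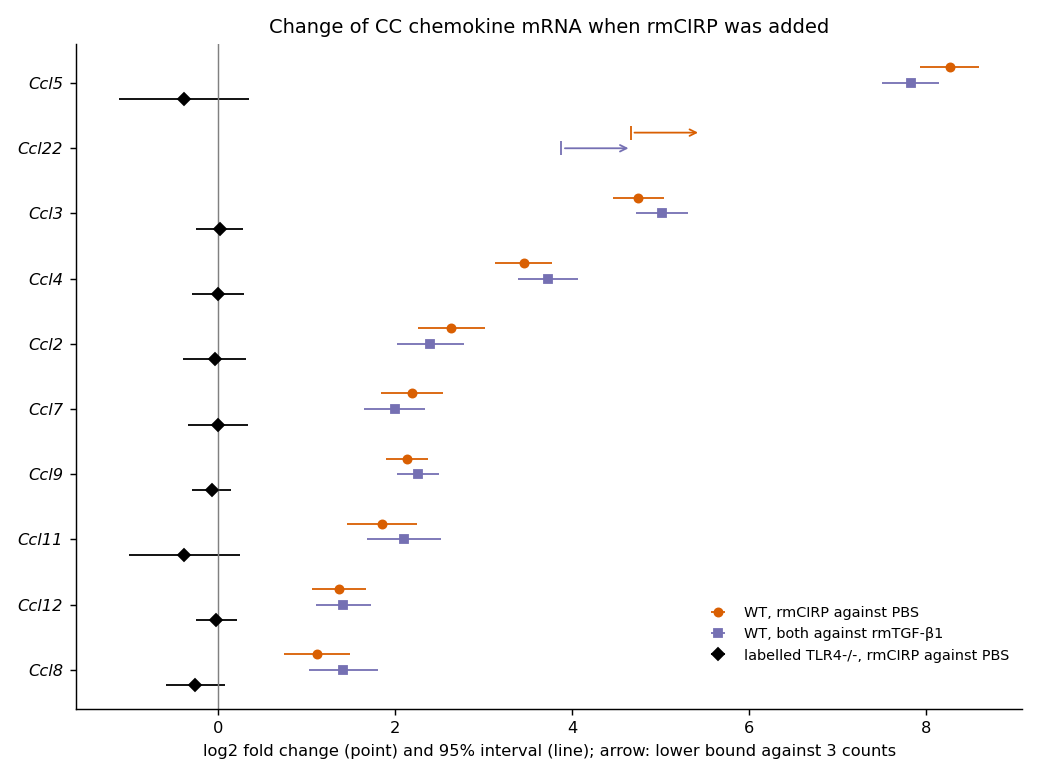
Log2 fold change of each CC chemokine on the x axis when rmCIRP was added, in WT cells against PBS (circles), in WT cells that also received rmTGF-β1 (squares) and in labelled TLR4-/- cells against PBS (diamonds), with lines for 95% intervals. Arrows mark the lower bounds for Ccl22, which is not drawn for labelled TLR4-/- cells. The WT changes run from 1.11 in Ccl8 to 8.26 in Ccl5, and the diamonds lie between -0.38 and 0.02.

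With PBS alone, the genotypes already differed in several chemokines. Of the 10, 5 were higher in labelled TLR4-/- than in WT cells (23.2% of all genes), and 1 was lower (24.0%), where 47.1% of all genes were called in either direction. Ccl12 had 123, 136 and 130.1 normalized counts in WT and 831, 710.0 and 709 in labelled TLR4-/- libraries, a change of 2.53 on the log2 scale (SE 0.14, adjusted p = 6.67e-13). Ccl9 had 1484, 1678 and 1802 in WT and 5462, 5412 and 5808 in labelled TLR4-/- libraries, a change of 1.75 (SE 0.11, adjusted p = 1.24e-11). Ccl4 was higher by 1.71 (SE 0.16, adjusted p = 8.44e-09), Ccl8 by 1.12 (SE 0.18, adjusted p = 2.49e-05) and Ccl3 by 1.09 (SE 0.14, adjusted p = 1.06e-06). None of these 5 had overlapping libraries between the genotypes, and with Ccl11 that made 6 of 10 (51.7% of all genes).

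Ccl11 went the other way, with 167, 283 and 260.2 normalized counts in WT and 79.03, 84.8 and 72.7 in labelled TLR4-/- libraries, and was lower by 1.59 on the log2 scale (SE 0.25, adjusted p = 1.69e-05). The most abundant members, Ccl2 and Ccl7, were not called, with log2 fold changes of -0.06 (95% interval -0.42 to 0.30) and 0.03 (interval -0.31 to 0.37). Ccl5 was not called either (0.71, adjusted p = 0.144), but it passed without labelled TLR4-/- PBS replicate 1 (0.90, adjusted p = 0.0876) or replicate 2 (0.96, adjusted p = 0.0477). All 13 macrophage markers were higher in labelled TLR4-/- libraries with PBS, with a median log2 fold change of 2.19. Their summed level was 3.85 times that of WT. The sum of the fibroblast markers was 0.963 times that of WT. Of these 8 markers, however, 1 was higher (23.2% of all genes), 3 were lower (24.0%) and 4 were not called (median -0.11). Other marker lists differed as well. Of 3 endothelial markers 2 were lower (median log2 fold change -1.72), 1 of 3 tested dendritic cell markers was higher, and the 1 tested epithelial marker was higher. The part of any of these cells in the chemokine levels was not tested.

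**Figure D3:**
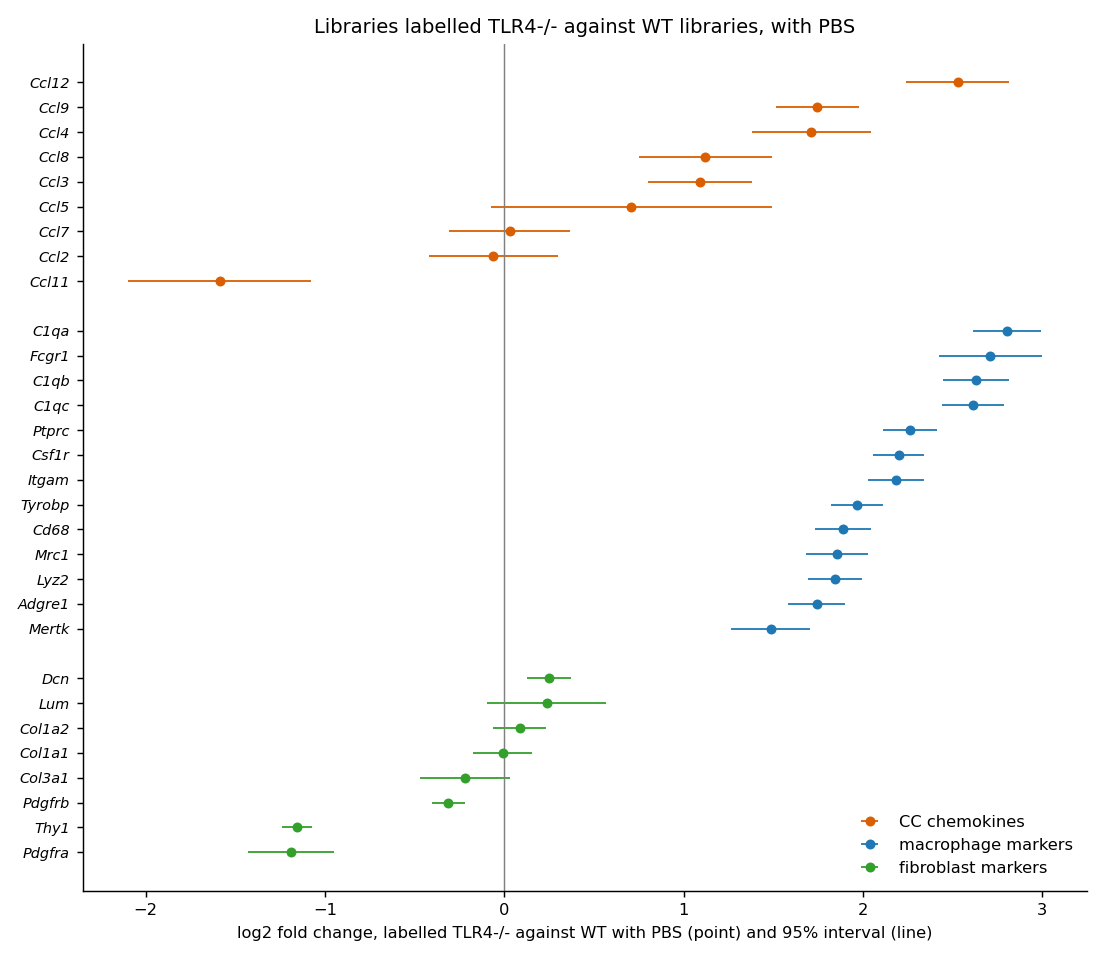
Log2 fold change of labelled TLR4-/- against WT libraries with PBS on the x axis, for 9 CC chemokines and the macrophage and fibroblast marker genes, each with its 95% interval as a line; Ccl22 was at the floor in both genotypes. The 13 macrophage markers all lie above 0, Ccl12, Ccl9, Ccl4, Ccl8 and Ccl3 lie between 1.09 and 2.53, and Ccl2 and Ccl7 lie near 0.

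With rmCIRP in both genotypes, 7 of the 9 members other than Ccl22 were lower in labelled TLR4-/- than in WT cells (29.2% of all genes and 59.5% in either direction), 1 was higher (30.4%) and 1 was not called. Libraries of the genotypes did not overlap for 8 of the 9 (62.3% of all genes). The lower members were Ccl5 (-7.94), Ccl11 (-3.82), Ccl3 (-3.64), Ccl2 (-2.73), Ccl7 (-2.16), Ccl4 (-1.74) and Ccl9 (-0.46, adjusted p = 0.000834). Ccl22 was at least 26.3-fold lower. Ccl12 stayed higher, with 716, 652 and 843 normalized counts in labelled TLR4-/- and 329, 306 and 369 in WT libraries (1.14, SE 0.12, adjusted p = 4.09e-08). Its 3 labelled TLR4-/- PBS libraries were also above every WT rmCIRP library. Ccl8 did not differ past the threshold (-0.25, 95% interval -0.58 to 0.09), with 100.3, 89.1 and 74.7 and 96.6, 99.8 and 119 normalized counts. Here too all 13 macrophage markers were higher in labelled TLR4-/- libraries, by a median of 2.33.

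The order of the conditions therefore differed between genes. By mean normalized count, WT cells with rmCIRP came first and WT cells with both proteins second for Ccl2, Ccl7, Ccl3, Ccl4, Ccl5, Ccl9, Ccl11 and Ccl22. Libraries of these 2 conditions overlapped for Ccl5 and Ccl11 and not for the other 6. Below them, neighboring conditions of Ccl2 overlapped down to the last step, where labelled TLR4-/- cells with rmTGF-β1 were lowest. For Ccl12 the 4 labelled TLR4-/- conditions came first, followed by the WT conditions with rmCIRP, and WT cells without rmCIRP were last. Ccl8 had its first 6 conditions in a chain of overlapping libraries, from 106 ± 22.5 to 84.02 ± 5.30 normalized counts, and only WT cells without rmCIRP stood below them.

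Adding rmTGF-β1 alone moved the chemokines far less, and downward where a call was made. In WT cells, 4 members were lower than with PBS (6.65% of all genes and 12.4% in either direction), and 3 of 10 had libraries that did not overlap (29.7%). Ccl9 had 1349, 1129 and 1362 normalized counts with rmTGF-β1, below the PBS range given above, a change of -0.37 on the log2 scale (SE 0.12, adjusted p = 0.046). Ccl3 changed by -0.49 (SE 0.15, adjusted p = 0.0523), Ccl4 by -0.54 (SE 0.19, adjusted p = 0.0829) and Ccl11 by -0.64 (SE 0.22, adjusted p = 0.0724). Ccl11 libraries overlapped between the treatments, with 181, 112 and 161 normalized counts with rmTGF-β1. These calls rested on single libraries, since none of the 4 was called without WT PBS replicate 2, without WT PBS replicate 3 or without WT rmTGF-β1 replicate 2, and 2 were called without WT rmTGF-β1 replicate 3. Lower calls over all genes in those fits were 3.97%, 3.96%, 3.30% and 4.93%. Ccl2, Ccl7, Ccl8, Ccl12 and Ccl5 were not called, with intervals as wide as -0.54 to 1.11 for Ccl5. Of 13 macrophage markers, 1 was lower and 12 were not called (median -0.12), and their part was not tested.

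In labelled TLR4-/- cells, rmTGF-β1 lowered 6 members (11.7% of all genes and 23.9% in either direction). Ccl4 had 783, 779.9 and 838 normalized counts with PBS and 369, 492 and 269 with rmTGF-β1, and fell by 1.09 on the log2 scale (SE 0.15, adjusted p = 2.38e-05). Ccl3 had 476, 672 and 392 with rmTGF-β1 and fell by 0.89 (SE 0.14, adjusted p = 7.89e-05). For both genes all rmTGF-β1 libraries were below all PBS libraries, as for 8 of 10 members without overlap (33.8% of all genes). Replicate 3 with rmTGF-β1 was the lowest for both, and without it 6 members were still called lower (7.23% of all genes). Ccl7 fell by 0.67 (SE 0.17, adjusted p = 0.00635), Ccl2 by 0.62 (SE 0.17, adjusted p = 0.0164), Ccl9 by 0.55 (SE 0.11, adjusted p = 0.000968) and Ccl12 by 0.55 (SE 0.12, adjusted p = 0.00203).

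Over the macrophage list, 1 of 13 markers was higher (12.1% of all genes), 1 lower (11.7%) and the median 0.03 in that comparison. The sum was 347075 to 397057 with PBS and 364071 to 381950 with rmTGF-β1. Of 8 fibroblast markers 1 was higher and 3 lower, and 1 of 3 tested dendritic cell markers was higher. The part of any of these cells in the chemokine levels was not tested. Ccl5 gave -0.93 (adjusted p = 0.106) and passed without labelled TLR4-/- PBS replicate 1 (-1.11, adjusted p = 0.0821), PBS replicate 2 (-1.19, adjusted p = 0.045) or rmTGF-β1 replicate 2 (-1.13, adjusted p = 0.0912). The genotypes were not shown to differ in the response of any member to rmTGF-β1. None of the 10 was called for that difference (0.0861% of all genes, 14 genes), although Ccl7 (-0.55), Ccl4 (-0.55) and Ccl5 (-1.21) had an unadjusted p under 0.05.

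**Figure D4:**
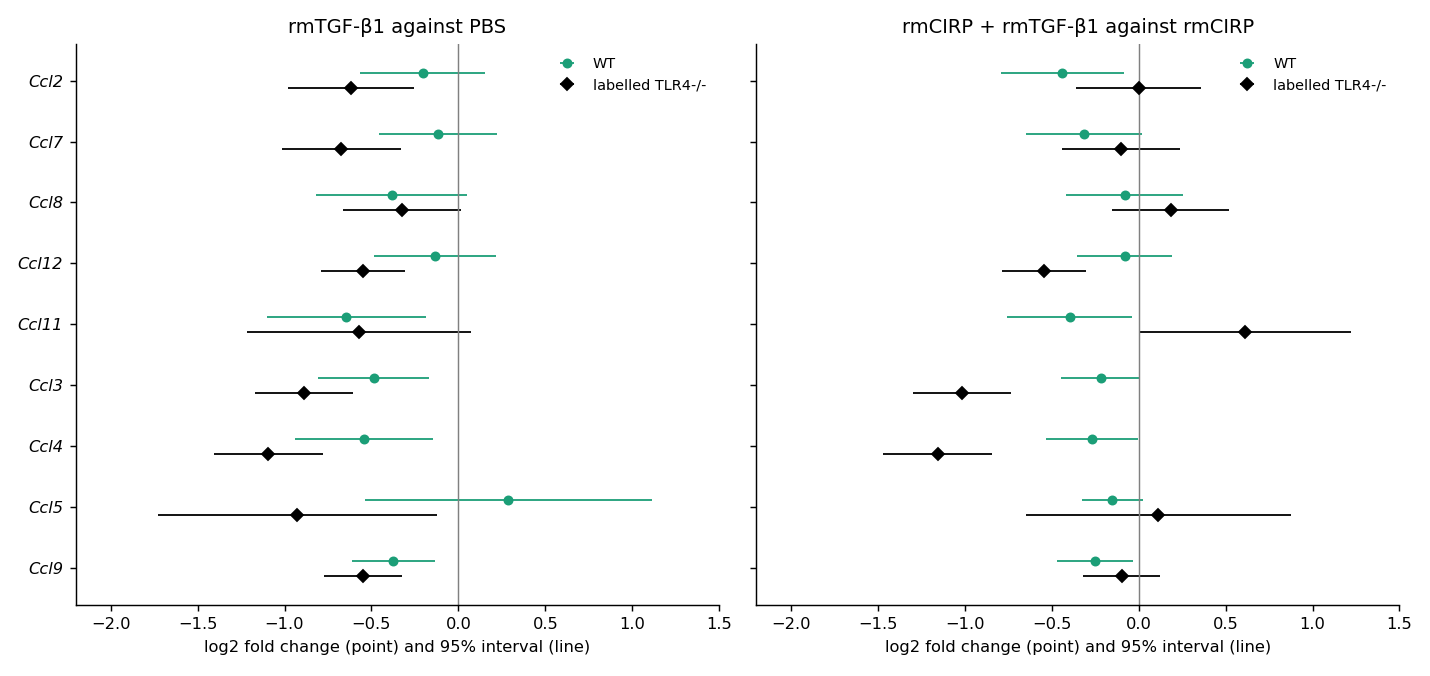
Log2 fold change of 9 CC chemokines on the x axis when rmTGF-β1 was added to PBS (left) or to rmCIRP (right), in WT (circles) and labelled TLR4-/- cells (diamonds), with lines for 95% intervals. Most points lie between -1.16 and 0, and the lowest point of the right panel, -1.16, is that of Ccl4 in labelled TLR4-/- cells.

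When rmTGF-β1 was added to rmCIRP in WT cells, 2 members were lower than with rmCIRP alone (10.5% of all genes and 20.5% in either direction). Counts in this comparison include Ccl22, which passed the filter only through the 2 conditions compared, and Ccl2 was the only other member called. Ccl22 had 70.04, 76.1 and 81.99 normalized counts with rmCIRP and 38.7, 38.3 and 48.8 with both, and fell by 0.86 (SE 0.24, adjusted p = 0.0176). Ccl2 fell by 0.44 (SE 0.17, adjusted p = 0.0902), and although its libraries did not overlap, the call was lost without any 1 of the 6 libraries (adjusted p 0.164 to 0.204). Ccl11 was called without WT rmCIRP replicate 2 (-0.53, adjusted p = 0.067) and Ccl9 without replicate 3 of the cells with both (-0.33, adjusted p = 0.0765). All 10 fitted changes were negative, from -0.86 to -0.08, and the libraries of 6 members did not overlap (36.4% of all genes). With only these 6 libraries in the fit, 8 members were called lower, and so were 15.5% of all genes. No member was called for an interaction of the 2 proteins in WT cells (0.0492% of all genes, 8 genes), and none had an unadjusted p under 0.05.

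In labelled TLR4-/- cells the same addition lowered 3 members (15.6% of all genes and 32.8% in either direction). Ccl4 had 779.6, 773 and 834 normalized counts with rmCIRP and 429, 378 and 264 with both, and fell by 1.16 (SE 0.15, adjusted p = 1.75e-05). Ccl3 fell by 1.02 (SE 0.14, adjusted p = 2.23e-05) and Ccl12 by 0.54 (SE 0.12, adjusted p = 0.00167). The libraries of these 3 members did not overlap (34.5% of all genes). Ccl2 had 7797, 10322 and 17118 normalized counts with both proteins, and replicate 3 was the highest in each of Ccl2, Ccl7, Ccl8, Ccl11, Ccl5 and Ccl9 but the lowest in Ccl12, Ccl3 and Ccl4. Without replicate 3, 6 members were called lower (10.7% of all genes), among them Ccl7 (-0.41, adjusted p = 0.0321) and Ccl9 (-0.28, adjusted p = 0.0269). Ccl11 was called higher without replicate 1 (0.82, adjusted p = 0.0441) or without replicate 2 (0.76, adjusted p = 0.0911) of the cells with both. Replicate 3 differed in markers of several cell types. Its sums against those of replicates 1 and 2 were 390.4 against 121 and 150 for neutrophil markers, 717 against 379 and 288 for endothelial markers, 432994 against 380274 and 346606 for macrophage markers and 391672 against 494247 and 452532 for fibroblast markers. Their part was not tested beyond leaving the library out.

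Adding rmCIRP to rmTGF-β1 in labelled TLR4-/- cells gave 2 members called higher (1.56% of all genes and 2.69% in either direction), Ccl7 (0.57, SE 0.16, adjusted p = 0.0967) and Ccl9 (0.38, SE 0.11, adjusted p = 0.0924). Ccl7 had 3244, 3847 and 3773 normalized counts with rmTGF-β1 and 3689, 5005 and 7459 with both, which overlap. Neither was called without replicate 3 of the cells with both (Ccl7 0.26, Ccl9 0.20) or without replicate 1 or 2 of the cells with rmTGF-β1, and 4 members were called higher without replicate 1 of the cells with both, where 9.10% of all genes were called higher. In WT cells the corresponding changes of Ccl7 and Ccl9 were 1.99 and 2.26.

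Levels can be compared between genes only per length, here as normalized counts per kb of exon in GENCODE M21. On this scale Ccl2 was the leading member in each of the 8 conditions. In WT cells with rmCIRP, Ccl2 had 68728 normalized counts per kb, Ccl7 32358, Ccl3 15584, Ccl4 4059.5 and Ccl5 3998. With PBS the same 5 genes had 11043, 7075, 578, 369.9 and 12.8. The sum over the 10 members was 20178 ± 3111 per kb in WT cells with PBS, and 128776 ± 3683 when rmCIRP was given. It was 23822 ± 2777 and 23273 ± 1082 in labelled TLR4-/- cells. Ccl2 and Ccl7 together made up 89.7% ± 0.599 of the sum in WT cells with PBS and 78.5% ± 1.04 with rmCIRP, and 74.7% ± 3.11 and 75.1% ± 0.677 in labelled TLR4-/- cells. In WT cells with rmCIRP, the smaller share of this pair went with the levels of Ccl3, Ccl4 and Ccl5. In labelled TLR4-/- cells with PBS, Ccl12 had 1396, Ccl9 1826, Ccl3 1234 and Ccl4 1213 per kb.

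**Figure D5:**
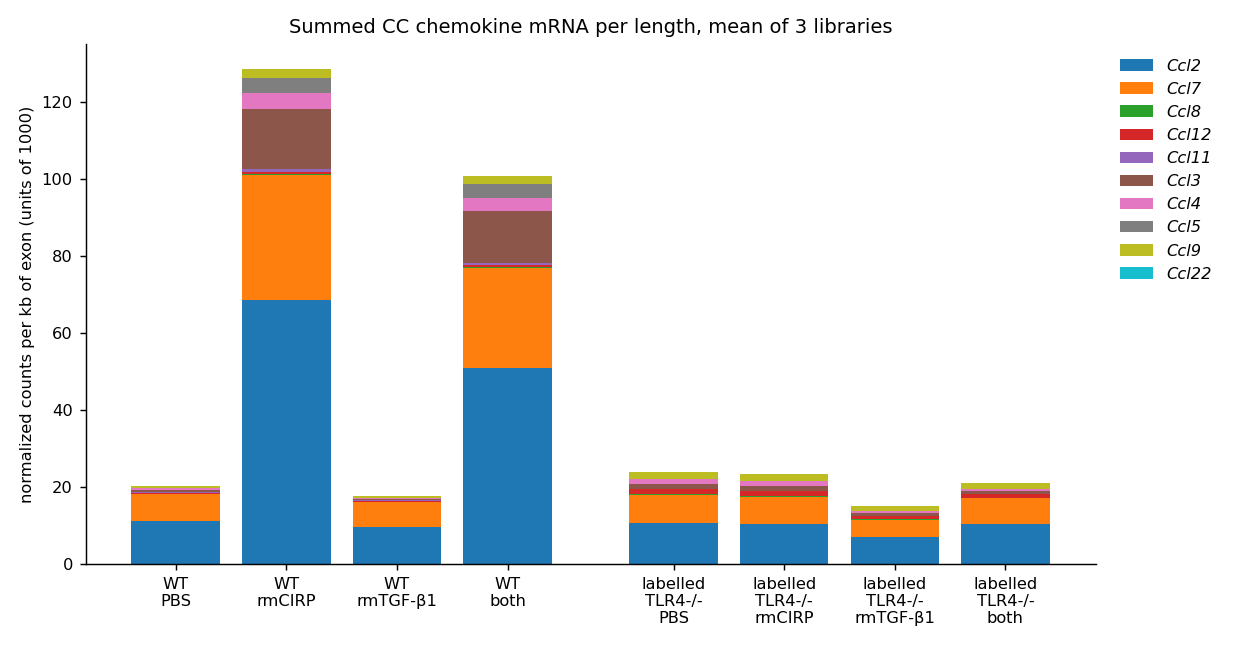
Summed CC chemokine mRNA in units of 1000 normalized counts per kb of exon on the y axis, for each of the 8 conditions on the x axis, as the mean of 3 libraries with 1 color for each gene. The WT bars with rmCIRP and with both proteins reach 128776 and 100793, the other 6 lie between 15076 and 23822, and Ccl2 (blue) is the largest part of every bar.

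Beyond the 10 members, 26 other genes of the CC system were listed, 11 ligands and 15 receptors, decoy receptors or the ligand-trimming protease Dpp4, and 12 of them passed the filter on low counts. In WT cells with rmCIRP, 1 of 6 tested ligands was higher (19.8% of all genes), 2 lower (24.1%) and 3 not called. Ccl20, the ligand of CCR6, had 28.9, 31.9 and 35.4 normalized counts with PBS and 368, 372 and 289 with rmCIRP, a rise of 3.41 (SE 0.16, adjusted p = 1.3e-13). Its WT level fell to 117 ± 8.78 when rmTGF-β1 was added (-1.55, SE 0.13, adjusted p = 2.92e-08). Ccrl2, an atypical receptor that does not signal through G proteins, rose from 25.4 ± 3.30 to 652 ± 123 normalized counts (4.68, SE 0.20, adjusted p = 2.69e-14).

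Ccl6, which lies next to Ccl9, did not rise with it and had 4757 ± 251 normalized counts with PBS and 3922 ± 188 with rmCIRP (-0.28, SE 0.10, adjusted p = 0.0312). With PBS, Ccl6 was higher in labelled TLR4-/- cells by 1.68 (SE 0.10, adjusted p = 4.48e-12), beside the macrophage markers given above. The response to rmCIRP differed between genotypes by -3.17 for Ccl20 and -4.69 for Ccrl2.

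Likeness of pattern was measured as the root mean square difference between log2 condition means, each centered over the 8 conditions, against 12310 other genes for 9 members and 12311 for Ccl22. These values describe libraries that all genes share. The closest pair among the 10 was Ccl2 and Ccl7 (0.198 log2 units), followed by Ccl8 and Ccl9 (0.360) and by Ccl2 and Ccl11 (0.576). For Ccl2 the nearest gene was Ccl7, then Hcar2 (0.207) and Mmp3 (0.227). Ccl7 was nearest to Il6 (0.143) and Icam1 (0.170), which encode a cytokine and a leukocyte adhesion molecule. Ccl5, whose pattern had the least close neighbors of the 10, was nearest to Nos2 (0.513) and Cxcl10 (0.633).

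The remaining members had other neighbors. Ccl3 was nearest to Phf11d (0.263) and Irf7 (0.273), Ccl4 to Parp14 (0.373) and Trim30a (0.398), and Ccl22 to Usp18 (0.391) and Mx2 (0.404). Irf7, Parp14, Trim30a, Usp18 and Mx2 are known as genes induced by interferon. Ccl12 was nearest to Pilrb1 (0.170), Milr1 (0.184) and Clec12a (0.187), and Ccl9 to Slc28a2 (0.129). Ccl8 was nearest to Fmnl2 (0.118) and Ccl11 to Kcnk10 (0.290) and Tnfsf11 (0.297).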

How the data were processed

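For each of the 24 libraries the authors deposited raw counts of reads per gene name from HTSeq, without normalization. Per the submitters' notes the build was NCBIM37, and the strand option of the counting is not given in the sources used here, so no gene coordinates are printed. The 5 tally lines for unassigned reads were left out. Libraries were grouped by their titles. Levels are counts divided by the size factors of DESeq2 1.42.0. Tests used edgeR 4.0.16 in R 4.3.3, with filterByExpr, TMM scaling, 1 quasi-likelihood fit of all 8 condition means, and Benjamini-Hochberg adjustment over all 16258 genes. A gene was called at an adjusted p under 0.1, the threshold the study used. SE is |log2 fold change| over the root of F. Intervals are at 95%. A level at 3 counts or fewer in all libraries of a condition was taken as a floor. The scripts were tested on simulated data.

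The members, gene lists and tests were chosen with earlier results of these data known. The genes named are the 10 members, listed genes of the CC system that were called and whose highest condition mean reached 50 normalized counts, and the 3 nearest patterns (pseudocount 1), not all of which are printed. One listed gene is not reported here. Alternatives were DESeq2, RLE scaling, no filter, a mean count of at least 10, only the libraries compared, the replicate number as a block, each library left out, and CPM for levels.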

Additional observations from a re-analysis of the deposited data

Results flagged for a closer look

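For 9 of the 10 chemokines, the response to rmCIRP differed between the genotypes when the difference itself was tested (edgeR, adjusted p under 0.1), as the log2 fold change in labelled TLR4-/- cells minus that in WT cells. The difference was -8.65 for Ccl5, -4.73 for Ccl3 and -3.46 for Ccl4. It was -2.67 for Ccl2, -2.19 for Ccl7 and -1.38 for Ccl12, the ligands of CCR2. For the others it was -2.24 in Ccl11, -2.21 in Ccl9 and -1.37 in Ccl8. Tlr4 mRNA was not lower in the libraries labelled TLR4-/-, and was called higher there with PBS and with rmCIRP. The genotype cannot be told apart from the pool of cells, which differed in markers of macrophages and of other cells.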

How the results depend on the processing

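In the alternatives other than leaving out a library, 667 log2 fold changes of members kept their direction and side of the threshold, 36 passed only in the alternative, 3 were lost and 2 reversed. Every level in 80 values by CPM moved by less than 1 SD. Members other than Ccl22 called in WT cells with rmCIRP, and with both proteins against rmTGF-β1, numbered 9 in every alternative run. The same held for the genotype difference in the rmCIRP response.

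Other counts of called members, with Ccl22 included, moved. For both proteins against rmCIRP in WT cells, 2 became 7 without a filter, 8 in a fit of those libraries alone and 1 by DESeq2, where 3136, 4591 and 2983 of all genes were called against 3329. For both against rmTGF-β1 in labelled TLR4-/- cells, 2 became 4 without a filter, 0 in a fit of those libraries alone and 4 by DESeq2. Without a filter, 5 members were called for the genotype difference in the rmTGF-β1 response and 1, Ccl2, for the WT interaction. Over all genes, labelled TLR4-/- cells with rmCIRP went from 0 calls to 149 without a filter, to 29 in a fit of those libraries alone and to 33 by DESeq2. Both against rmTGF-β1 in those cells went from 437 to 1580, 0 and 902, and both against rmCIRP to 2710 with only the libraries compared. The genotype difference in the rmTGF-β1 response went from 14 to 563 without a filter, 23 with a mean count of at least 10 and 163 with DESeq2, and the WT interaction from 8 to 198, 125 and 37. The cause was not tested. Without a filter the change of Ccl2 with both against rmCIRP in labelled TLR4-/- cells reversed to -0.012.

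Replicate numbers are shared between conditions, but the labels do not say what a number marks, so the numbers were not read as pairs. Residuals of same-numbered libraries had a mean correlation of 0.0111 (-0.0734 to 0.190 over pairs of conditions), against -0.00553 for different numbers. Of 24 libraries, 13 correlated best with their own number. These values do not exclude a pairing. With the replicate number as a block, 1 gene was called for rmCIRP in labelled TLR4-/- cells, 810 for both against rmTGF-β1 there and 22 for the genotype difference in the rmTGF-β1 response, and Ccl2 with both against rmCIRP there became -0.018.

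Leaving out 1 library at a time, members called were 0 to 4 for rmTGF-β1 in WT cells, 1 to 2 for both against rmCIRP in WT cells, 0 to 4 for both against rmTGF-β1 and 3 to 6 for both against rmCIRP in labelled TLR4-/- cells. Over all genes, calls were 1029 to 1690 for rmTGF-β1 in WT cells and 2 to 7 for the WT interaction. In labelled TLR4-/- cells they were 0 to 9 for rmCIRP, 2517 to 3783 for rmTGF-β1 and 0 to 2674 for both against rmTGF-β1, and the genotype difference in the rmTGF-β1 response had 0 to 119. Changes that crossed 0 were all of members not called in the fit with every library. For rmCIRP in labelled TLR4-/- cells these were Ccl12 (-0.12 to 0.058), Ccl2 (-0.13 to 0.078), Ccl3 (-0.055 to 0.10), Ccl4 (-0.034 to 0.024), Ccl5 (-0.65 to 0.21) and Ccl7 (-0.11 to 0.15). For both against rmTGF-β1 there, they were Ccl12 (-0.11 to 0.10), Ccl3 (-0.28 to 0.12) and Ccl4 (-0.27 to 0.17), and for both against rmCIRP there Ccl2 (-0.37 to 0.23), Ccl5 (-0.19 to 0.30) and Ccl7 (-0.41 to 0.11). Between genotypes with PBS they were Ccl2 (-0.17 to 0.061) and Ccl7 (-0.11 to 0.14), and in the genotype difference in the rmTGF-β1 response Ccl11 (-0.10 to 0.26) and Ccl8 (-0.12 to 0.24). In WT cells they were Ccl12 (-0.19 to 0.010) and Ccl8 (-0.17 to 0.026) for both against rmCIRP and Ccl12 (-0.084 to 0.15) for the interaction.

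Limits: Ccl5 outside the WT conditions with rmCIRP, and Ccl22 throughout labelled TLR4-/- cells, were too low in counts for small changes to be detectable. Each condition had 3 libraries, and bulk RNA does not show which cells made a chemokine.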
